A study of Homo sapiens with 18 samples.

Results

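Neutrophil granule protein genes were followed in MOLM-13, a human acute monocytic leukaemia cell line, as 5 rows of the deposited expression table: MPO, ELANE, AZU1, PRTN3 and CTSG. They were chosen by symbol for what they encode, and all 5 were found among the 23713 rows and among the 11054 genes kept for comparison. Cells were given dTRIM24, IACS-9571 or the solvent DMSO for 24 h or 4 h, with 3 labelled samples in each of the 6 groups and 18 in all. IACS-9571 is a ligand of the bromodomains of TRIM24 and BRPF1. dTRIM24 joins a ligand of that kind to a VHL ligand, which recruits a ubiquitin ligase. The labels give no dose. Their treatment protocol names 24 h for every sample, whereas titles and time points name 24 h or 4 h, and the groups here follow the titles. One cell line was used, so nothing here speaks of other leukaemias or of neutrophils.

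Azurophil granules are the first granules that a maturing neutrophil makes, at the promyelocyte stage, and their proteins kill engulfed microbes. MPO encodes myeloperoxidase, a haem enzyme that makes hypochlorous acid. ELANE (neutrophil elastase), PRTN3 (proteinase 3) and CTSG (cathepsin G) encode serine proteases that are stored in active form, and AZU1 encodes azurocidin, a relative that has lost its protease activity. AZU1, PRTN3 and ELANE lie side by side on chromosome 19, CTSG lies on chromosome 14 and MPO on chromosome 17. The 3 genes on chromosome 19 follow one another with no other kept gene between them. None of the 5 overlaps another gene in the RefSeq annotation used for names.

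The 5 genes are known targets of myeloid transcription factors, among them PU.1 (SPI1), C/EBP proteins and MYB, so the sequence before their starts is shown where the reference table held it. This was the case for 3 of the 5, AZU1, PRTN3 and CTSG. The 250 bases before each RefSeq start (GRCh38.p14) are written 5′ to 3′ on the gene's own strand, and capitals mark matches on either strand to the motifs named after them. AZU1 is taken from chr19:827587-827836 (+ strand), PRTN3 from chr19:840749-840998 (+ strand) and CTSG from chr14:24576251-24576500 (- strand).
AZU1: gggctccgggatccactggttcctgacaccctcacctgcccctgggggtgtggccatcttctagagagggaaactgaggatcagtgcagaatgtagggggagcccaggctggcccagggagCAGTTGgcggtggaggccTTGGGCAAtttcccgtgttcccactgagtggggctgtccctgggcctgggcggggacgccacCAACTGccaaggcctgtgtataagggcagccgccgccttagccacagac
PRTN3: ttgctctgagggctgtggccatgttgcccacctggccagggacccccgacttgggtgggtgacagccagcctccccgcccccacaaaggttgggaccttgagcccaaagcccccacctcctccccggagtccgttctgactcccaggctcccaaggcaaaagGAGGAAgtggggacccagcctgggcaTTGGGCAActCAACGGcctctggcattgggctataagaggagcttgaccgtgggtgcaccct
CTSG: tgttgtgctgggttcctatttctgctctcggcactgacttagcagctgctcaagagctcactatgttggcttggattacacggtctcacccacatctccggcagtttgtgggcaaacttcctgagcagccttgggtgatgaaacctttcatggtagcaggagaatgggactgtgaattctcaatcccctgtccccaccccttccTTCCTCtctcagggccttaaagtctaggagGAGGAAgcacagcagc

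The letters GAGGAA were searched for ETS factors such as PU.1, and TTNNGNAA for C/EBP proteins. For MYB the letters were TAACNG or else CAACNG. RUNX factors were searched as TGTGGT or else as TGCGGT, and the TATA box as TATAAA. PRTN3 held GAGGAA at bases -88 to -83, TTGGGCAA at -62 to -55 and CAACGG at -52 to -47, counted back from the start. AZU1 held the same 8 letters, TTGGGCAA, at -111 to -104, and CAACTG at -49 to -44 with a second copy on the other strand at -129 to -124. CTSG held GAGGAA at -16 to -11 and, on the other strand, at -46 to -41. No match overlapped another. Among 35116 promoter windows of this length, GAGGAA stood in 23.6%, TTNNGNAA in 33.2% and CAACNG in 27.0%. The other letters stood in 17.6% (TAACNG), 10.98% (TGTGGT), 5.84% (TGCGGT) and 10.7% (TATAAA) of windows and in none of these 3. That is a description of letters and not of binding.

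The expression table holds 1 mean value per gene and group, in FPKM. By definition this unit scales read fragments for transcript length and library size. With means alone the spread between replicates cannot be given, so all differences below are untested descriptions, and sequencing depth is likewise unknown. Differences are of log2(FPKM + 1), and 2-fold means a difference of 1 on that scale, which understates the change of low genes. For scale, 25 ERCC spike-ins with at least 5 FPKM in each group had an SD of their log2 differences between 0.11 and 0.22 in the 9 comparisons. Among the 8 spike-ins with at least 100 FPKM this SD lay between 0.04 and 0.20. They describe scatter among control RNAs and do not replace the spread between replicates. Column totals were unequal, from 771830 FPKM with IACS-9571 at 24 h to 1058350 FPKM with DMSO at 4 h. The median of the 25 spike-ins lay between 29.7 and 31.7 FPKM in the 6 groups. How the columns were scaled to one another was not tested. Kept genes had a median of 12.4 FPKM with dTRIM24, 9.87 FPKM with IACS-9571 and 9.96 FPKM with DMSO at 24 h, and of 12.1, 12.2 and 12.2 FPKM in the same order at 4 h. In bulk RNA, fewer cells that make a transcript and less of it per cell cannot be told apart.

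The name of the group was checked against the levels. The 4 serine protease family genes were among the most abundant transcripts of the line, while MPO was low. In DMSO at 4 h, CTSG ranked 85, ELANE 112, AZU1 114 and PRTN3 224 of 11054 kept genes by FPKM, and MPO ranked 6582. The summed FPKM of the 5 genes made up 0.448% of the total over kept genes with dTRIM24, 0.382% with IACS-9571 and 0.411% with DMSO at 24 h. At 4 h the shares were 0.431% with dTRIM24, 0.453% with IACS-9571 and 0.530% with DMSO.

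CTSG had the highest level of the 5 genes in all 6 groups. At 24 h its mean was 1299 FPKM with dTRIM24, 939.8 FPKM with IACS-9571 and 1096 FPKM with DMSO. At 4 h it was 1278 FPKM with dTRIM24, 1359 FPKM with IACS-9571 and 1604 FPKM with DMSO. The DMSO mean at 4 h was the highest and the IACS-9571 mean at 24 h the lowest, with 1.71-fold between them. The means with IACS-9571 and dTRIM24 at 4 h and dTRIM24 at 24 h lay within steps of 0.07 and 0.02 on the log2 scale. The summed FPKM of all kept genes has the same extremes, with a low of 609922 for IACS-9571 (24 h) and a high of 779336 for DMSO (4 h). The share of the 5 genes in that sum was also lowest and highest in these groups, at 0.382% and 0.530%. How far the extremes of CTSG follow the sum was not tested.

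ELANE had 926 FPKM with dTRIM24, 619.8 FPKM with IACS-9571 and 685 FPKM with DMSO at 24 h. Its 4 h means were 821 FPKM with dTRIM24, 889.9 FPKM with IACS-9571 and 1057 FPKM with DMSO. AZU1 lay close below ELANE in every group, at 813 FPKM with dTRIM24, 576 FPKM with IACS-9571 and 599.5 FPKM with DMSO at 24 h. Its 4 h values were 737 FPKM with dTRIM24, 865 FPKM with IACS-9571 and 1029 FPKM with DMSO. Both genes were highest in DMSO at 4 h and lowest with IACS-9571 at 24 h. For AZU1 the step between IACS-9571 and DMSO at 24 h was 0.06 on the log2 scale. In that comparison the SD was 0.12 over the 25 spike-ins and 0.042 over the 8 abundant ones, so the step is below the first and above the second.

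PRTN3 had 302 FPKM with dTRIM24, 192 FPKM with IACS-9571 and 255 FPKM with DMSO at 24 h. Its level at 4 h was 317 FPKM with dTRIM24, 314 FPKM with IACS-9571 and 430.4 FPKM with DMSO. The DMSO mean at 4 h was set off from the next highest by 0.44 on the log2 scale, the largest step at the top of the order among the 5 genes. Behind it dTRIM24 at 4 h, IACS-9571 at 4 h and dTRIM24 at 24 h were separated by steps of 0.01 and 0.06.

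MPO, which marks the same granules, had 7.43 FPKM with dTRIM24, 3.55 FPKM with IACS-9571 and 5.13 FPKM with DMSO at 24 h. At 4 h it had 6.86 FPKM with dTRIM24, 7.15 FPKM with IACS-9571 and 8.63 FPKM with DMSO. MPO spanned 2.43-fold from its highest to its lowest mean, the widest span of the 5, against 2.24-fold for PRTN3 and 1.79-fold for AZU1 and 1.71-fold for ELANE and CTSG. At this low level, with unknown depth, its values carry less weight than those of the abundant genes.

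**Figure D1:**
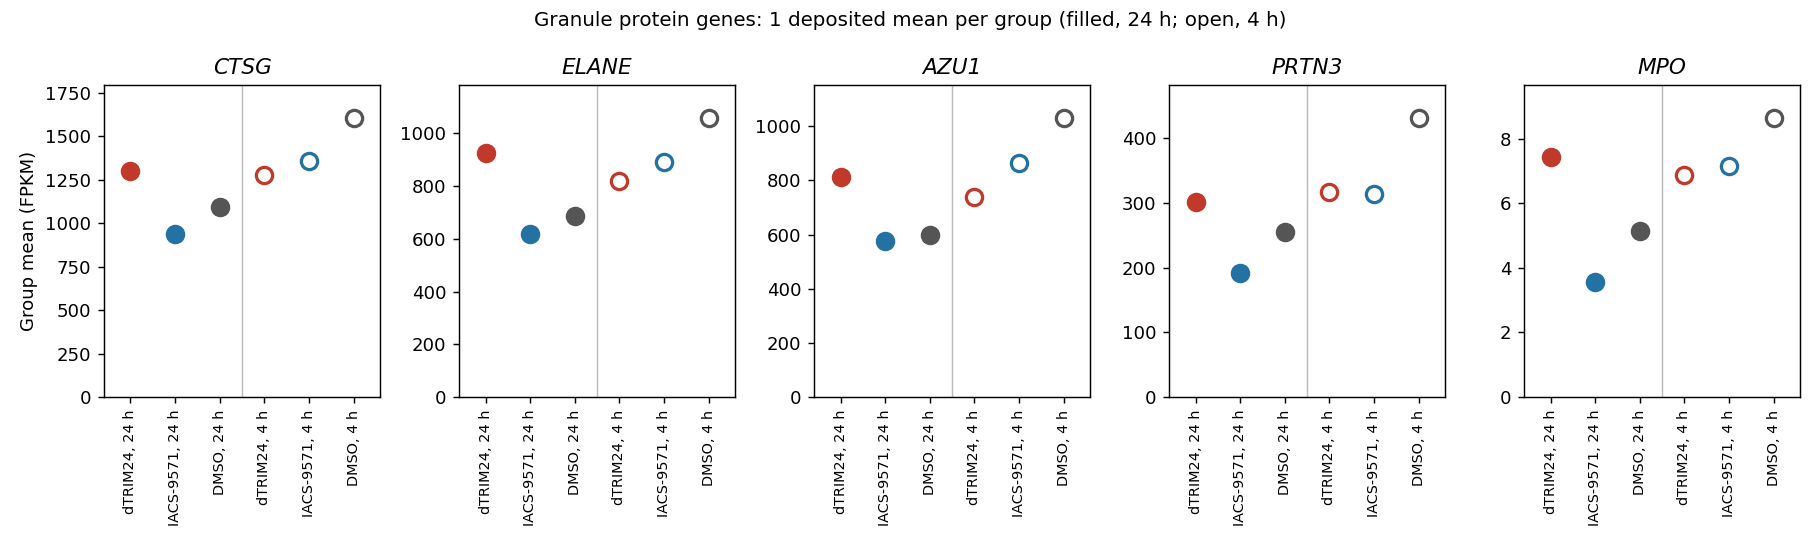
Group means in FPKM (linear axes starting at 0, a separate scale per gene) for the 5 granule protein genes, 1 point per deposited mean, filled at 24 h and open at 4 h, with no error bars because replicate values were not analysed. In each panel the DMSO mean at 4 h is the highest point and the IACS-9571 mean at 24 h the lowest, and MPO stays below 9 FPKM while CTSG reaches 1604 FPKM.

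The comparisons at 24 h ask how cells differ after a day with the degrader, with its bromodomain ligand type alone, or with neither. All 5 granule genes were lower with IACS-9571 than with DMSO, as were 57.4% of kept genes. MPO differed by -0.43, PRTN3 by -0.41, CTSG by -0.22, ELANE by -0.14 and AZU1 by -0.06 on the log2 scale. The median was -0.22 over the 5 genes and -0.02 over all kept genes. None passed 2-fold, and 0.172% of kept genes did. MPO and PRTN3 lay at percentiles 0.642 and 0.724 of the kept genes, CTSG at 3.29, ELANE at 11.2 and AZU1 at 36.3, so the genes were unlike each other in this comparison. With quantile normalization the median was -0.06 and AZU1 lay on the other side, at 0.06.

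With dTRIM24 at 24 h the 5 genes lay above DMSO, by 0.46 for MPO, 0.44 for AZU1, 0.43 for ELANE, 0.24 for CTSG and 0.24 for PRTN3. Higher values were the rule in this comparison: 96.8% of kept genes were higher, by a median of 0.26. PRTN3 and CTSG stood at percentiles 47.2 and 47.6 and the other 3 between 81.6 and 84.9. With each group centred on its median, 3 of the 5 genes were higher and 2 lower, with CTSG and PRTN3 at -0.01 each. None passed 2-fold, against 0.199% of kept genes.

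The GC content of the transcripts was read beside this difference. The longest annotated transcript has 66.8% GC for ELANE, 66.4% for PRTN3, 63.4% for AZU1, 58.5% for MPO and 54.7% for CTSG, and the median of kept genes is 48.0%. With a cubic trend of the differences on GC content taken out, 1 of the 5 genes was higher and 4 were lower with dTRIM24 than with DMSO at 24 h. MPO then stood at 0.07, AZU1 at -0.01, ELANE at -0.06, CTSG at -0.09 and PRTN3 at -0.25. The fit includes a constant, so taking out the trend also takes out the general shift of a comparison. Here the median was 0.26 over kept genes as deposited, and -0.005 over those with a GC value after the fit. The direction with dTRIM24 at 24 h thus depends on whether trend and shift are taken out, and their parts were not told apart. With IACS-9571 against DMSO at 24 h the values hardly moved, with MPO at -0.43, PRTN3 at -0.41 and a median of -0.21.

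Set directly against each other at 24 h, the compounds were at matched time, with doses that the labels do not give. All 5 genes were higher with dTRIM24 than with IACS-9571, by 0.89 for MPO, 0.65 for PRTN3, 0.58 for ELANE, 0.50 for AZU1 and 0.47 for CTSG. In this comparison 98.4% of kept genes were higher, by a median of 0.28. MPO lay at percentile 99.8 and PRTN3 at 98.7. None passed 2-fold on the log2(FPKM + 1) scale, as 0.217% of kept genes did, but the plain ratio of MPO was 2.09. With each group centred on its median the 5 genes lay between 0.19 and 0.61. Without the GC trend and the general shift the 5 stayed on the higher side. They were then at 0.50 for MPO, 0.17 for PRTN3, 0.13 for CTSG, 0.09 for ELANE and 0.05 for AZU1. The interval of these differences cannot be given, so likeness of the compounds for ELANE or AZU1 is not shown either.

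The 4 h comparisons ask for early effects. With dTRIM24 the 5 genes were lower than with DMSO, with differences of -0.48 for AZU1, -0.44 for PRTN3, -0.36 for ELANE, -0.33 for CTSG and -0.29 for MPO. Lower values were found for 52.2% of kept genes, with a median of -0.01, and all 5 granule genes lay below percentile 5. Without the GC trend they were at -0.32, -0.27, -0.19, -0.25 and -0.17 in the same order. None of the 5 passed 2-fold, and 0.688% of kept genes did. The 8 abundant spike-ins spanned -0.22 to 0.21 in this comparison.

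IACS-9571 at 4 h also stood below DMSO for all 5 genes, where 49.9% of kept genes were lower and the median was 0.00. PRTN3 differed by -0.45, at percentile 0.163. The other 4 lay within a narrow range, with AZU1 at -0.25, ELANE at -0.25, MPO at -0.24 and CTSG at -0.24. The 8 abundant spike-ins spanned -0.08 to 0.08 here. After removal of the GC trend PRTN3 stood at -0.38, CTSG at -0.21, MPO at -0.19, AZU1 at -0.18 and ELANE at -0.17. None passed 2-fold, against 0.289% of kept genes. This comparison and the one with dTRIM24 share the DMSO mean at 4 h.

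Between the compounds at 4 h, dTRIM24 and IACS-9571 gave close means for 4 of the genes. PRTN3 differed by 0.01, MPO by -0.05, CTSG by -0.09 and ELANE by -0.12, while AZU1 differed by -0.23. In all, 4 of the 5 were lower with dTRIM24, as were 57.4% of kept genes, none passed 2-fold and 0.597% of kept genes did. The SD over 25 spike-ins was 0.22 in this comparison. Without the GC trend AZU1 stood at -0.14 and PRTN3 at 0.11.

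The comparisons over time set 24 h against 4 h within each treatment. The 5 genes were lower in DMSO at 24 h than at 4 h, with differences of -0.78 for AZU1, -0.75 for PRTN3, -0.65 for MPO, -0.63 for ELANE and -0.55 for CTSG. Lower values were found for 95% of kept genes, by a median of -0.22, so the granule genes stood 0.33 to 0.56 below that general shift. AZU1 and PRTN3 were at percentiles 0.244 and 0.317. Without the GC trend and the general shift the differences were -0.33 for AZU1, -0.28 for PRTN3, -0.26 for MPO, -0.22 for CTSG and -0.15 for ELANE. The 8 abundant spike-ins spanned -0.24 to 0.29 in this comparison. No gene of the 5 passed 2-fold, against 0.217% of kept genes.

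With IACS-9571 the 24 h means were again below the 4 h means, with differences of -0.84 for MPO, -0.71 for PRTN3, -0.59 for AZU1, -0.53 for CTSG and -0.52 for ELANE. Here 97% of kept genes were lower, by a median of -0.26, and 0.443% passed 2-fold, none of the 5 among them. The plain ratio of MPO was 0.497. With dTRIM24 the 24 h and 4 h means were close: ELANE differed by 0.17, AZU1 by 0.14, MPO by 0.10, CTSG by 0.02 and PRTN3 by -0.07. In that comparison 61.4% of kept genes were higher, the median was 0.05 and 0.669% passed 2-fold, again with none of the 5. Once the GC trend and the general shift were out, all 5 were lower with dTRIM24 at 24 h than at 4 h. These differences ran from -0.02 for ELANE to -0.26 for PRTN3. That the change over time differs between treatments was not tested.

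A lower threshold of 1.5-fold separated the comparisons further. In DMSO over time 4 of the 5 genes passed it, all but CTSG, where 4.01% of kept genes did. With IACS-9571 over time MPO, PRTN3 and AZU1 passed it, 3 of the 5, where 2.5% of kept genes did. AZU1 stood almost on the threshold there, with a plain ratio of 0.666. Between dTRIM24 and IACS-9571 at 24 h MPO and PRTN3 passed it, 2 of the 5, where 3.21% of kept genes did. ELANE fell just short of it, with a plain ratio of 1.49, so such counts rest partly on small margins. None of the 5 passed it in the other 6 comparisons. Of kept genes, 4.98% passed it for dTRIM24 and 0.452% for IACS-9571 against DMSO at 24 h, and 1.02% for dTRIM24 and 0.66% for IACS-9571 against DMSO at 4 h. It was 0.751% between the compounds at 4 h and 1.18% with dTRIM24 over time.

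**Figure D2:**
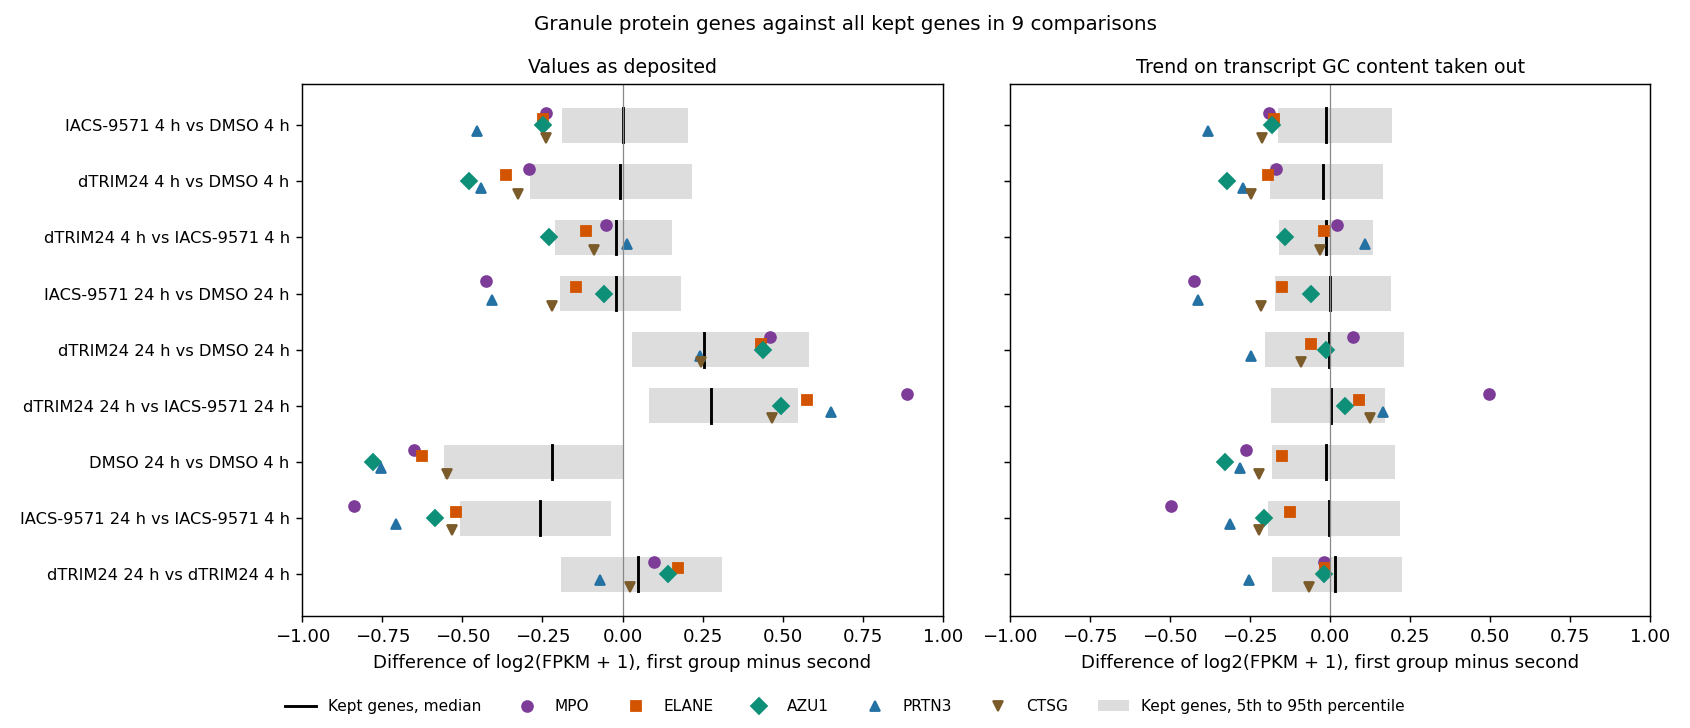
Differences of log2(FPKM + 1), first named group minus second, for the 5 granule genes (symbols) in the 9 comparisons, over the 5th to 95th percentile range (grey bar) and median (black line) of kept genes. On the left, as deposited, the granule genes lie at or beyond the low end of the bar in both 4 h comparisons with DMSO and over time with IACS-9571, and in DMSO over time all but CTSG do. On the right, with the GC trend and the general shift taken out, dTRIM24 against DMSO at 24 h lies around 0, from -0.25 to 0.07.

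Ratios between the genes within 1 group do not depend on a common scaling factor of that group. AZU1 was at 87.9% of ELANE with dTRIM24, 93.0% with IACS-9571 and 87.5% with DMSO at 24 h, and at 89.8%, 97.2% and 97.3% in the same order at 4 h. PRTN3 was at 32.6% of ELANE with dTRIM24, 31.0% with IACS-9571 and 37.2% with DMSO at 24 h. At 4 h PRTN3 was at 38.6% with dTRIM24, 35.3% with IACS-9571 and 40.7% with DMSO. At each time PRTN3 was thus lower relative to ELANE with either compound than with DMSO. At 4 h the log2 ratio relative to DMSO was -0.08 with dTRIM24 and -0.21 with IACS-9571. The SD over 25 spike-ins was 0.21 for dTRIM24 and 0.11 for IACS-9571, so the dTRIM24 value lay within that scatter. Both 4 h values share 1 DMSO mean. Relative to DMSO at 4 h, the log2 ratio of PRTN3 to ELANE was -0.32 with dTRIM24 and -0.39 with IACS-9571 at 24 h. These ratios show unequal differences of neighbours on chromosome 19, and not which of the genes moved.

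CTSG was at 140.3% of ELANE with dTRIM24, 152% with IACS-9571 and 160.0% with DMSO at 24 h. Its 4 h ratios, 156% with dTRIM24, 153% with IACS-9571 and 152% with DMSO, lay close together. MPO was at 0.574% of ELANE with IACS-9571 at 24 h, which was -0.51 on the log2 scale relative to DMSO at 4 h. In the other 5 groups MPO was at 0.748% to 0.835% of ELANE.

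**Figure D3:**
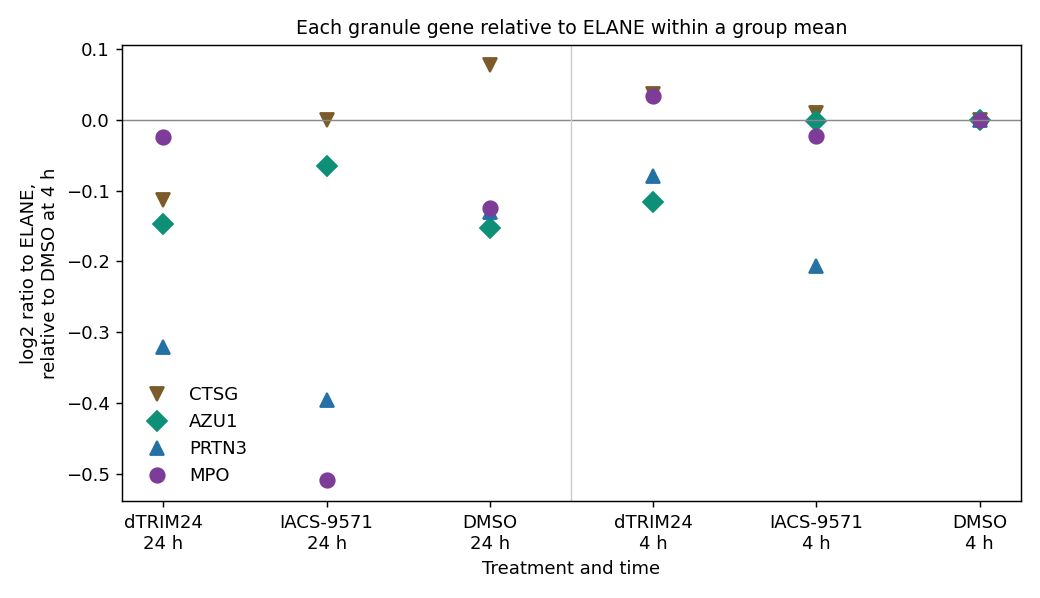
Log2 ratio of CTSG, AZU1, PRTN3 and MPO to ELANE within each group mean, relative to the same ratio in DMSO at 4 h (0 line), 1 point per gene and group without error bars. PRTN3 lies at -0.39 with IACS-9571 and -0.32 with dTRIM24 at 24 h, and MPO at -0.51 with IACS-9571 at 24 h, while CTSG stays between -0.11 and 0.08.

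Other azurophil granule genes were read from a list of 20, of which 17 were kept. With dTRIM24 at 4 h, 15 of these lay below DMSO and 2 above, with a median of -0.16, where 52.2% of kept genes lay below. PRSS57, a further serine protease of the same granules, had 96.4 FPKM with dTRIM24 and 138 FPKM with DMSO, a difference of -0.51. CTSD and MAN2B1, lysosomal enzymes found in these granules, differed by -0.36 and -0.31, and CST7 (cystatin F) by -0.28. With IACS-9571 at 4 h, 16 lay below DMSO and 1 above, with a median of -0.11, where 49.9% of kept genes lay below. RNASE2, an abundant granule ribonuclease, had 649.9 FPKM with dTRIM24, 644 FPKM with IACS-9571 and 649 FPKM with DMSO at 4 h, so the list did not move as 1 block.

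With IACS-9571 at 24 h, 16 of the 17 lay below DMSO, with a median of -0.12, where 57.4% of kept genes lay below. PRSS57 had 56.2 FPKM with IACS-9571 and 75.5 FPKM with DMSO, a difference of -0.42, and LYZ, the lysozyme gene, had 302 FPKM with IACS-9571 and 377 FPKM with DMSO. SRGN, the serglycin core protein on which granule proteases are packed, differed by -0.28 and CST7 by -0.27. With dTRIM24 at 24 h, 14 of the 17 were above DMSO, where 96.8% of kept genes were, with a median of 0.22 against 0.26 for kept genes. That direction turned once the GC trend, and the general shift with it, was taken out, when the list's median was -0.11. SRGN differed by -0.35 as deposited. No gene of the list passed 2-fold in the 9 comparisons. The defensin genes DEFA1, DEFA3 and DEFA4, which belong to later azurophil granules, stayed between 0.09 and 0.15 FPKM, near the 0.0914 to 0.105 FPKM that 6066 rows share in each column.

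Listed genes of later neutrophil stages were nearly absent, with 1 exception. Of 15 genes of specific and tertiary granules, 14 stayed below 1 FPKM in all groups, among them LTF, CAMP, LCN2, MMP8 and MMP9. The exception was CHI3L1, which was well above 5 FPKM in all groups and is described under other observations. Of 12 listed eosinophil, basophil and mast cell genes, none reached 5 FPKM. This list leaves out RNASE2 and RNASE3, granule ribonucleases read here with the azurophil list, which both reached 5 FPKM. It therefore does not cover all eosinophil granule genes. EPX, the eosinophil relative of MPO, had at most 0.27 FPKM. Among markers of other cells, no T cell or megakaryocyte gene reached 1 FPKM, and 1 of 9 erythroid genes (EPOR) and 1 of 6 B cell genes (PAX5) did. Of 12 myeloid leukaemia markers 11 were kept, with FLT3 between 79.8 and 104 FPKM. CD14, a monocyte surface marker, stayed between 0.15 and 0.21 FPKM and was the 1 listed marker not kept. On the same list FCGR1A lay between 23.8 and 35.7 FPKM and CD68 between 20.9 and 30.4 FPKM. CSF1R had at most 1.22 FPKM and ITGAM at most 2.65 FPKM.

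Of 16 factors listed as regulators of granule genes 13 were kept, and CEBPE, a factor of later granulocyte stages, was not, at 0.12 to 0.16 FPKM. SPI1, which encodes PU.1, had 75.5 FPKM with dTRIM24, 51.6 FPKM with IACS-9571 and 55.4 FPKM with DMSO at 24 h. At 4 h SPI1 stood at 63.0 FPKM with dTRIM24, 65.4 FPKM with IACS-9571 and 80.1 FPKM with DMSO. CEBPA had 151 FPKM with dTRIM24, 118 FPKM with IACS-9571 and 115 FPKM with DMSO at 24 h, and 128, 148 and 159 FPKM in the same order at 4 h.

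MYB lay between 112 and 134 FPKM over the 6 groups, and GFI1, a repressor that acts in granulocyte precursors, between 31.0 and 38.0 FPKM. Of the 13 kept regulators 12 lay below DMSO when dTRIM24 was given for 4 h (median -0.09), and 10 did so with IACS-9571 (median -0.07). Of kept genes 52.2% lay below DMSO with dTRIM24 and 49.9% with IACS-9571 at that time. The largest differences with dTRIM24 at 4 h were those of RARA at -0.36, SPI1 at -0.34, CEBPA at -0.32 and GFI1 at -0.25. At 24 h all 13 were above DMSO with dTRIM24, as were 96.8% of kept genes, with a median of 0.27 against 0.26 for kept genes. That median was -0.03 once the GC trend and the general shift were out. With IACS-9571 at 24 h, 6 were above and 7 below, with a median of -0.00, where 57.4% of kept genes lay below. With the GC trend taken out, SPI1 differed by -0.17 with dTRIM24 and by -0.22 with IACS-9571 from DMSO at 4 h. No regulator passed 2-fold.

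Processing and storage genes had medians near 0 against DMSO at 4 h. CTSC encodes the peptidase that activates the granule serine proteases. It had 155 FPKM with dTRIM24, 129 FPKM with IACS-9571 and 140.0 FPKM with DMSO at 24 h, and 158, 160.1 and 171 FPKM in the same order at 4 h. Over the 18 genes of the processing and sorting list the median was -0.05 with dTRIM24 and -0.05 with IACS-9571 against DMSO at 4 h, with 6 higher and 12 lower in each, where 52.2% of kept genes were lower with dTRIM24 and 49.9% with IACS-9571. At 24 h it was 0.15 with dTRIM24 and -0.13 with IACS-9571, and for dTRIM24 it was -0.04 without the GC trend and the general shift. Kept genes had 24 h medians of 0.26 with dTRIM24 and -0.02 with IACS-9571. With dTRIM24 17 of the 18 were higher, where 96.8% of kept genes were. With IACS-9571 14 of the 18 were lower, where 57.4% of kept genes were. CALR (calreticulin), a chaperone of the MPO precursor, had 1132 FPKM with dTRIM24, 1126 FPKM with IACS-9571 and 1226 FPKM with DMSO at 4 h.

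Haem synthesis genes, which supply the cofactor of myeloperoxidase, had a median of -0.11 with dTRIM24 and -0.03 with IACS-9571 at 4 h over 11 genes. At 24 h their medians were 0.27 with dTRIM24 and 0.00 with IACS-9571, and for dTRIM24 -0.01 without the GC trend and the general shift. Over kept genes the dTRIM24 median was 0.26 as deposited. ALAS1, the first enzyme of that pathway, had 31.3 FPKM with dTRIM24, 25.8 FPKM with IACS-9571 and 24.7 FPKM with DMSO at 24 h. None of these genes passed 2-fold.

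Of 14 protease inhibitor genes 7 were kept. SERPINB1, an inhibitor of elastase, proteinase 3 and cathepsin G inside neutrophils, had 29.0 FPKM with dTRIM24, 26.7 FPKM with IACS-9571 and 28.9 FPKM with DMSO at 24 h. At 4 h it had 31.3, 32.4 and 32.0 FPKM in the same order. SERPINA1, the circulating elastase inhibitor, stayed between 0.12 and 0.18 FPKM. Inhibitor medians against DMSO at 24 h were 0.16 with dTRIM24, or -0.06 without the GC trend and the general shift, and -0.21 with IACS-9571. Over kept genes these medians were 0.26 with dTRIM24 and -0.02 with IACS-9571. With dTRIM24 5 of the 7 were higher, where 96.8% of kept genes were. With IACS-9571 6 of the 7 were lower, where 57.4% of kept genes were. Their 4 h medians were -0.04 with dTRIM24 and -0.02 with IACS-9571. CST3 (cystatin C) was the gene of this list with the largest difference with dTRIM24 at 4 h, at 182 FPKM with dTRIM24 and 230.3 FPKM with DMSO.

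**Figure D4:**
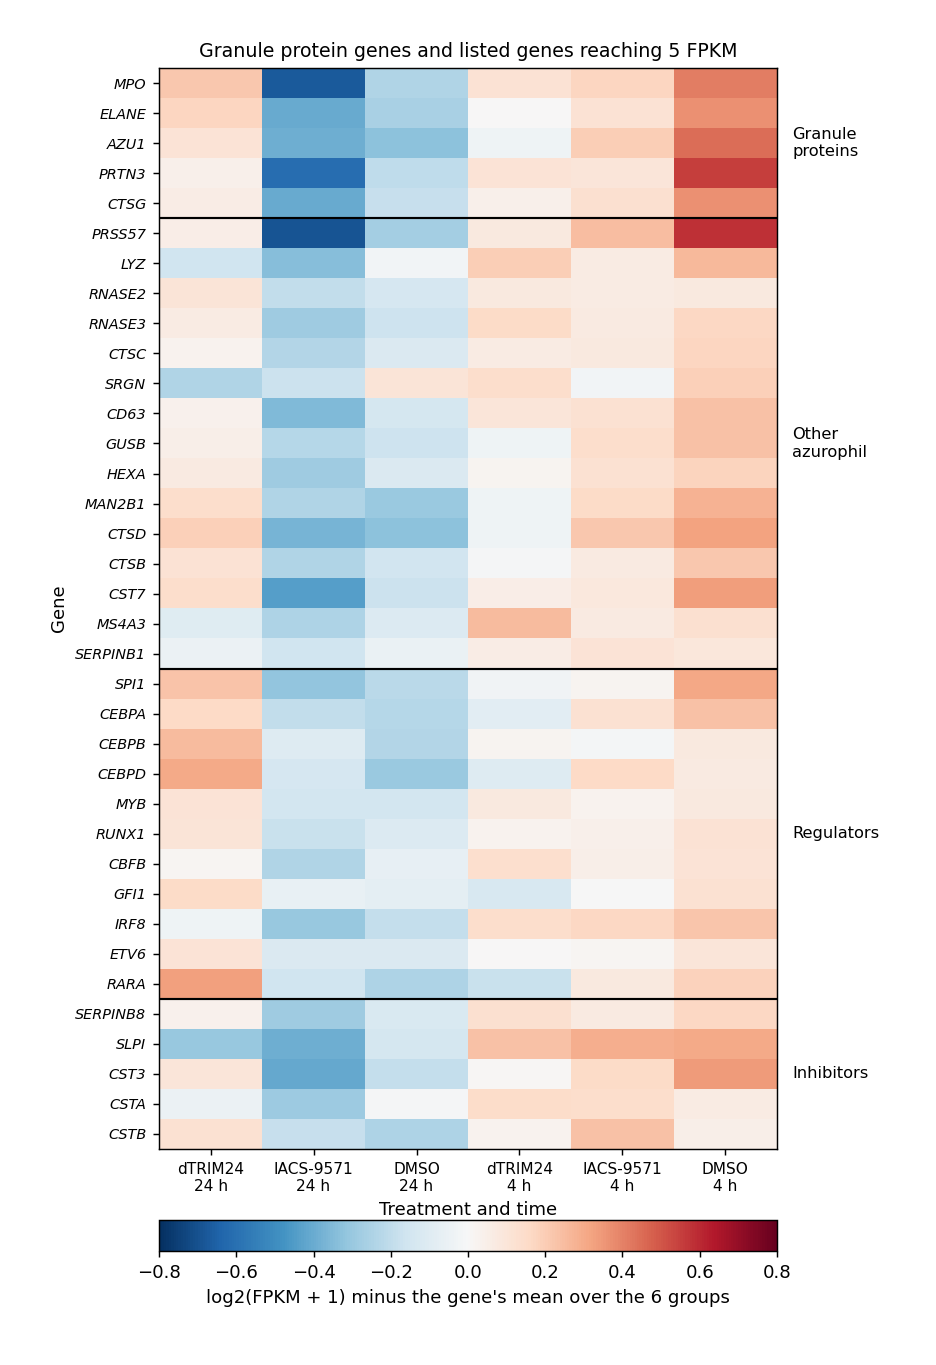
Log2(FPKM + 1) minus each gene's mean over the 6 groups (colour), for the 5 granule genes and for listed azurophil, regulator and inhibitor genes that reached 5 FPKM in a group, with a gene of 2 lists drawn once. PRSS57 runs between -0.69 with IACS-9571 at 24 h and 0.59 with DMSO at 4 h, the extremes that the total over kept genes also has, and SERPINB1 shows a pale row.

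The nearest kept genes on each side were read next. CFD, the complement factor D gene beside ELANE and a serine protease relative, had 167 FPKM with dTRIM24, 115 FPKM with IACS-9571 and 122 FPKM with DMSO at 24 h. At 4 h CFD had 162, 181 and 196 FPKM in the same order. Against DMSO at 4 h it differed by -0.28 with dTRIM24 and -0.12 with IACS-9571. MED16, a Mediator subunit beyond CFD, differed by -0.31 and -0.02, LPPR3 on the other side of the cluster by -0.28 and -0.07, and PTBP1, a splicing regulator, by -0.22 and -0.00. Without the GC trend the dTRIM24 differences were smaller, at -0.11 for CFD, -0.14 for MED16 and -0.07 for PTBP1. With IACS-9571 they were then -0.05 for CFD, 0.05 for MED16 and 0.06 for PTBP1. LPPR3 had no GC value.

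LPO, the lactoperoxidase gene next to MPO, had 3.65 FPKM with dTRIM24, 2.60 FPKM with IACS-9571 and 2.89 FPKM with DMSO at 24 h, and 3.87, 3.66 and 4.09 FPKM in the same order at 4 h. Against DMSO at 4 h, MKS1 beyond LPO differed by -0.07 with dTRIM24 and -0.05 with IACS-9571. On the other side of MPO, BZRAP1 differed by -0.16 and -0.13 and BZRAP1-AS1 by -0.37 and -0.39. Neither BZRAP1 nor BZRAP1-AS1 had a GC value. Around CTSG, the related chymase gene CMA1 had at most 1.01 FPKM. SDR39U1 differed by -0.13 with dTRIM24 and -0.11 with IACS-9571 from DMSO at 4 h. G2E3 and SCFD1 on the other side of CTSG differed by 0.04 and 0.12 with dTRIM24, and by -0.11 and 0.02 without the GC trend.

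The genes most like the mean profile of the 5 were found by the root-mean-square distance between centred log2(FPKM + 1) profiles over the 6 means. Among 7395 genes with at least 5 FPKM in each group these were FERMT3, CYBA, CORO1A, PYCARD and LOC606724, at distances between 0.02 and 0.04. CYBA, a subunit of the phagocyte NADPH oxidase, had 463 FPKM with dTRIM24, 296 FPKM with IACS-9571 and 345 FPKM with DMSO at 24 h, and 443, 483 and 578 FPKM in the same order at 4 h. Transcript GC content was between 61.3% and 63.0% for the 4 of these genes that had a value, above the 48.0% median of kept genes. The part of GC content in this likeness was not tested.

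The nearest single genes were RNH1 and SLC39A3 for ELANE, TSPO and EGFL7 for AZU1, KLHDC3 and MAD2L2 for CTSG, SPNS3 and NKG7 for PRTN3, and MFAP4 and CORO1A for MPO. NKG7 encodes a granule membrane protein of cytotoxic cells, and had 24.1 FPKM with dTRIM24, 16.5 FPKM with IACS-9571 and 20.4 FPKM with DMSO at 24 h. Among 7399 genes, CTSG and AZU1 ranked 169 and 242 in likeness to ELANE, while PRTN3 ranked 2187. Seen from PRTN3, MPO ranked 12, CTSG 18, ELANE 44 and AZU1 49. The 5 genes were therefore not each other's closest matches, and PRTN3 with MPO formed the pair with the strongest departures with IACS-9571 at 24 h.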

How the data were processed

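RNA of 18 MOLM-13 samples in 6 groups of 3 was sequenced; per the labels' protocols, cells were normalized by count and mixed with ERCC spike-ins. The submitters' processing notes name TopHat2, Cuffnorm and hg19 for the FPKM values that the authors deposited. Tool versions, the gene annotation and use of strand: not given in the sources used here. The deposited table has 1 mean per group, with no counts, so depth is unknown. No label says that replicates were separate cultures. Column totals differ between groups while the median spike-in difference stays within 0.06 on the log2 scale.

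Of 23713 rows, 92 spike-ins and 1705 small RNAs (by name, host genes kept) were left out, and 11054 genes with a highest mean of at least 1 FPKM were kept, the 5 granule genes included. Differences were of log2(FPKM + 1), with a threshold of 2-fold and no test. GC content came from the longest GENCODE transcript of each symbol, for 10243 genes (92.7%). The GC trend was a cubic fit with a constant, so taking it out also takes out the general shift of a comparison. The granule genes and lists were chosen with earlier results of these data known. Named were the granule genes, up to 4 listed genes of at least 5 FPKM with the largest differences, stated regulators, the 2 nearest kept neighbours per side and the likest genes. Others (RNASE2, RNASE3, CALR, ALAS1, SERPINA1, CD14, FCGR1A, CD68, CSF1R, ITGAM, FLT3, EPX, the defensin and specific granule genes, EPOR, PAX5, CHI3L1) were chosen after their values were seen. Promoters are RefSeq's. Steps were tested on simulated data. Alternatives were pseudocounts of 0.1 and 0.5, no filter, floors of 5 and 100 FPKM, median centring, quantile normalization, spike-in rescaling, the GC trend and a 1.5-fold threshold. Versions were pandas 2.3.3, numpy 2.4.6, matplotlib 3.10.9 and Python 3.11.15.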

Additional observations from a re-analysis of the deposited data

How the results depend on the processing

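Of 396 differences of the 5 genes under the alternatives, 334 moved by less than the SD of the spike-ins and 62 by more. The 334 include all values with no filter or with a floor, which leave each gene's difference unchanged by construction. Such values say nothing about how stable the results are. Of the 62, 21 came with the GC trend out, 20 with median centring, 20 with quantile normalization and 1 with a pseudocount of 0.1. In all, 14 of the differences changed sign, and the cause was not tested. Of these 14, 8 were differences of dTRIM24 at 24 h from DMSO or from 4 h with the GC trend taken out, and MPO between dTRIM24 and IACS-9571 at 4 h stood at 0.02 with that trend out or after spike-in rescaling. Neither a main value nor an alternative among the 14 passed 2-fold.
With each group centred on its median, the median over the 5 genes was 0.18 for dTRIM24 against DMSO and 0.30 for dTRIM24 against IACS-9571 at 24 h. Between 24 h and 4 h it was -0.43 in DMSO and -0.33 with IACS-9571. Quantile normalization gave -0.059 for IACS-9571 against DMSO, 0.15 for dTRIM24 against DMSO and 0.29 for dTRIM24 against IACS-9571 at 24 h, and -0.37 in DMSO and -0.24 with IACS-9571 over time. Without the GC trend and the general shift the medians were -0.060 for dTRIM24 against DMSO and 0.13 for dTRIM24 against IACS-9571 at 24 h. Over time they were -0.26 in DMSO and -0.22 with IACS-9571.

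A pseudocount of 0.1 put 1 gene, MPO, past 2-fold between dTRIM24 and IACS-9571 at 24 h. A threshold of 1.5-fold was passed by 2 genes in that comparison, against 3.21% of kept genes, by 4 in DMSO over time, against 4.01%, and by 3 with IACS-9571 over time, against 2.5%. AZU1 was almost on the threshold in the last of these. A floor of 100 FPKM leaves MPO out. No paired analysis was possible because the columns hold group means, and leaving out replicates was not run for the same reason. Unknown depth limits MPO most, as the lowest of the 5.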

Other observations

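CHI3L1, a secreted chitinase-like protein stored in specific granules, was the 1 gene of the 15 on the specific and tertiary granule list that was kept. It had 56.3 FPKM with dTRIM24, 48.0 FPKM with IACS-9571 and 61.9 FPKM with DMSO at 24 h, and 73.9, 73.1 and 87.4 FPKM in the same order at 4 h. With dTRIM24 at 24 h it differed from DMSO by -0.13, at percentile 0.841 of kept genes, while the 5 azurophil genes were above DMSO as deposited. Without the trend on GC content and the general shift, CHI3L1 differed by -0.48. Of the 5 azurophil genes, 4 were then also below DMSO, between -0.01 for AZU1 and -0.25 for PRTN3.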
